A study of Mus musculus with 8 samples.

Results

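The interferon-stimulated genes described here are 38 of the 54532 genes in the deposited read count table. They were picked by gene symbol and not by a cut on measured values, though earlier results of these data were known. They comprise 29 targets of type I interferon and 9 GTPases that interferon gamma induces strongly, namely 5 guanylate-binding proteins (Gbp) and 4 immunity-related GTPases (Irg). All 38 were found, and all 38 had a mean of at least 10 counts over the 8 libraries and in each of the 4 WT and KO pairs. The study asked how loss of Tert, the catalytic subunit of telomerase, in endothelial cells (EC) alters their transcriptome, and RNAseq was done on mG+ cells, which carry membrane GFP, sorted by FACS from female mice 8 months old. WT mice were Tie2e-cre; TERT+/+; mTmG and EC-Tert-KO mice were Tie2e-cre; TERTfl/fl; mTmG, so that both genotypes carried the Cre driver and the reporter. Cells came from subcutaneous adipose tissue (SAT) of mice on high-fat diet (HFD), and from SAT, visceral adipose tissue (VAT) and gastrocnemius muscle of mice on chow. Each tissue and diet had 1 library per genotype, and the sources used here do not state whether cells of several mice were pooled. The Tie2e promoter drives Cre in EC, and any cell that once expressed it keeps the GFP mark.

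Interferons are cytokines, and those of type I are released by cells on sensing foreign or misplaced nucleic acids. Type I interferons act through Ifnar1 and Ifnar2 and a complex that holds Stat2 and Irf9 and binds interferon-stimulated response elements (ISRE), whereas interferon gamma acts through Ifngr1 and Ifngr2 and on gamma-activated sites (GAS). The target genes encode sensors and effectors of antiviral defence, and the Gbp and Irg GTPases act on membranes of compartments that hold intracellular pathogens. EC respond to both kinds of interferon, and so do the leukocytes that travel through vessels.

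Library depth ran from 6214269 counts in the SAT HFD WT library to 18855772 in the SAT chow WT library, and the 38 genes took 0.135% to 0.210% of the counts of a library. Tert had 114 counts in WT and 0 in KO cells of SAT on HFD, at least 71.1-fold lower in KO at a floor of 3 counts in the library. The SAT chow libraries held 70 Tert counts (WT) and 11 (KO), and the muscle libraries 24 and 7. In VAT it had 3 counts in the library labelled WT and 9 in the library labelled KO, which goes against the labels, so that any direction given for VAT rests on the labels alone. All 10 EC markers were present in every library and summed to 272 to 2116 CPM (counts scaled to the TMM-adjusted library total), and so were all 10 macrophage markers, which summed to 429.6 to 14932 CPM. The SAT chow WT library stood apart, with Malat1, a nuclear RNA, at 299 CPM against 2176 to 6005 CPM in the 7 other libraries.

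Promoter sequence was looked at for the letters of the binding elements named above. RefSeq promoter windows of GRCm38.p6, running from 250 bases before to 50 bases after a start site, were matched for 27 of the 38 genes, which had 31 windows. The ISRE letters, GAAA and again GAAA after any 2 bases, read on both strands, were present in 19 of the 27 genes and in 20 of the 31 windows (64.5%), against 3.44% of all 32851 windows. GAS letters, TTCNNNGAA, which read alike on both strands, were present in 9 of the 27 genes and in 29.03% of the windows, against 8.30% of all windows. All 7 GTPases with a window held ISRE letters and 4 of them GAS letters, while 12 of the 20 type I targets held ISRE letters and 5 held GAS letters. Both motifs were found in 7 genes and neither in 6 (Irf7, Irf9, Oasl1, Oasl2, Ifi44 and Xaf1). Overlapping matches were each counted, and in Bst2 a GAS match overlapped an ISRE match. A match is a description of letters and not a bound site.

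The windows below belong to genes on which the expression results turn, with ISRE and GAS letters in capitals and each sequence given 5′ to 3′ on the strand of the gene. Isg15 encodes a ubiquitin-like protein and its window (chr4:156200769-156201068, minus strand) held 3 overlapping ISRE matches. Ifit1 encodes a protein that binds foreign RNA ends and its window (chr19:34640639-34640938, plus strand) held 2 separate ones. Igtp (chr11:58199306-58199605, plus strand) and Irgm2 (chr11:58214727-58215026, plus strand) are neighbouring Irg genes, and in both a GAS match was followed after 2 bases by an ISRE match. Gbp7 (chr3:142530086-142530385, plus strand) held 2 GAS matches and 1 ISRE match, and Gbp2 (chr3:142620413-142620712, plus strand) held 1 ISRE match.
Isg15: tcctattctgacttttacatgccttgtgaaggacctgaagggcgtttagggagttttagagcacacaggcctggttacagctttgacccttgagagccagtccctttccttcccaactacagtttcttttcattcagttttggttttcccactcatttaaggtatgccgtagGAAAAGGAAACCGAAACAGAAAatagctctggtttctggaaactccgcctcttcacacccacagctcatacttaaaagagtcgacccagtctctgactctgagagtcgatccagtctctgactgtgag
Ifit1: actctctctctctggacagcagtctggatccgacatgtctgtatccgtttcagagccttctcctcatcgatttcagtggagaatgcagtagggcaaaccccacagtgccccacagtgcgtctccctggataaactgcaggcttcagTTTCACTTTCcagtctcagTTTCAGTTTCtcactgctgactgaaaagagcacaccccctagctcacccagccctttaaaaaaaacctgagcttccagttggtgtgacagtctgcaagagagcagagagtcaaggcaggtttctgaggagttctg
Igtp: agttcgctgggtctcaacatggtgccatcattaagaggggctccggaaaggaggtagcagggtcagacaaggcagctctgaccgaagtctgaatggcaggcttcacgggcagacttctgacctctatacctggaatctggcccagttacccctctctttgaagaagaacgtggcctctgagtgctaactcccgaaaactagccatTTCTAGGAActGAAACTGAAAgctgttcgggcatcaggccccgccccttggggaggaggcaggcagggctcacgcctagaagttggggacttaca
Irgm2: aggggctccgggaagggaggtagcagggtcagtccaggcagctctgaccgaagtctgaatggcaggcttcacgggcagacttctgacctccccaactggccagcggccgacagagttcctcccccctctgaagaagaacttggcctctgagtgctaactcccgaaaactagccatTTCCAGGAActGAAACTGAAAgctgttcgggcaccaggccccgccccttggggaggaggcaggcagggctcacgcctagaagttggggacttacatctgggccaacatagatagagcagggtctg
Gbp7: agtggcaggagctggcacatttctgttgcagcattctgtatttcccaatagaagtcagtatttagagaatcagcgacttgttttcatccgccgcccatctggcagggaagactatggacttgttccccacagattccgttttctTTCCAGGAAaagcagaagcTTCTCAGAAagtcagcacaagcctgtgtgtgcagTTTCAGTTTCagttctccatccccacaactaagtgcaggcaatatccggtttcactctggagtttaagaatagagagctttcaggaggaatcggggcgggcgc
Gbp2: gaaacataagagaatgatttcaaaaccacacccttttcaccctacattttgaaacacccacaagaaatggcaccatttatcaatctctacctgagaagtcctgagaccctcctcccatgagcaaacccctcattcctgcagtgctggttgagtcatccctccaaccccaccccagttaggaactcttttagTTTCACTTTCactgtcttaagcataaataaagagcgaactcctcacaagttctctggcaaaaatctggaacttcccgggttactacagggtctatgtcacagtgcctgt

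**Figure D1:**
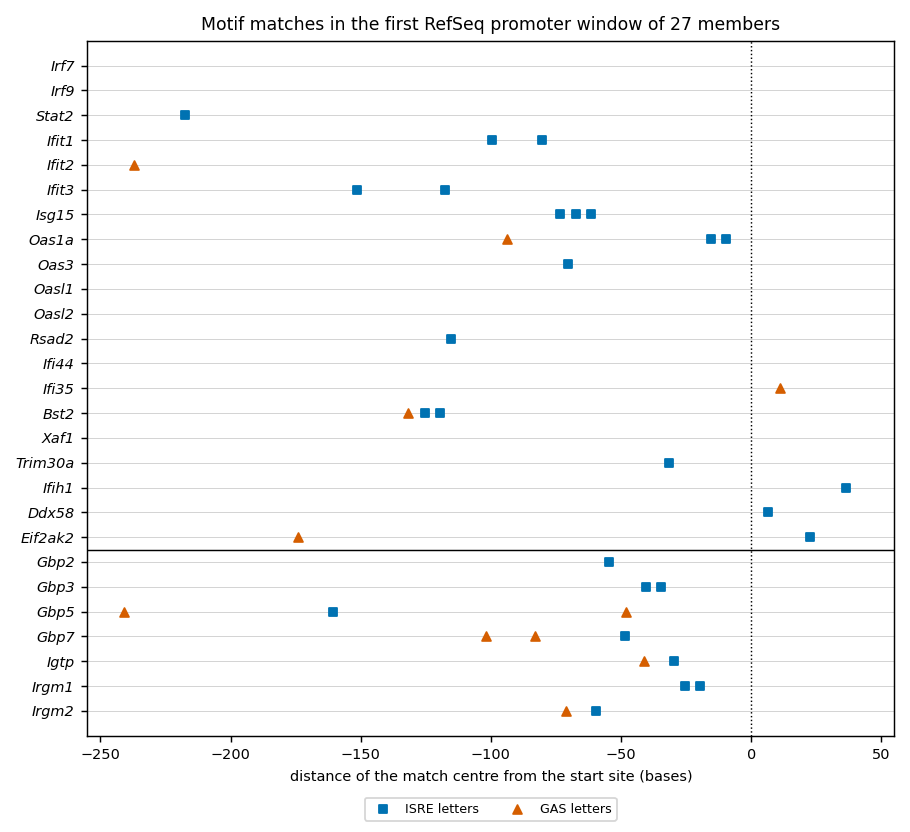
Position of each ISRE match (blue squares) and GAS match (orange triangles) in the first RefSeq window of the 27 matched genes, as the distance of its centre from the start site in bases, with type I targets above the black line and GTPases below it. All 7 GTPase rows hold an ISRE match, and 6 of the rows hold no match.

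Divided by gene length, the most abundant of the 38 transcripts was Ifi27l2a, a small interferon-induced membrane protein, at a mean of 97.6 CPM per kilobase over the 8 libraries. It was followed by Bst2, the tetherin that holds budding virus at the cell surface, at 72.4, and by Igtp at 40.05. Ifi44 was the least abundant at 0.883 CPM per kilobase and ranked last in every tissue and diet. The order was not the same everywhere: Igtp ranked 2 of the 38 genes in SAT on HFD and 3 in SAT on chow, but 8 in VAT and 5 in muscle. Zbp1, a sensor of Z-form nucleic acids that can start necroptosis, ranked 8 in SAT on chow and 26 in VAT. Across the 8 libraries the ratio of the highest to the lowest CPM ran from 1.45 for Trim30a to 8.72 for Mx1. Mx2 is annotated in the table as a polymorphic pseudogene, and its CPM ran from 3.44 to 16.4.

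**Figure D2:**
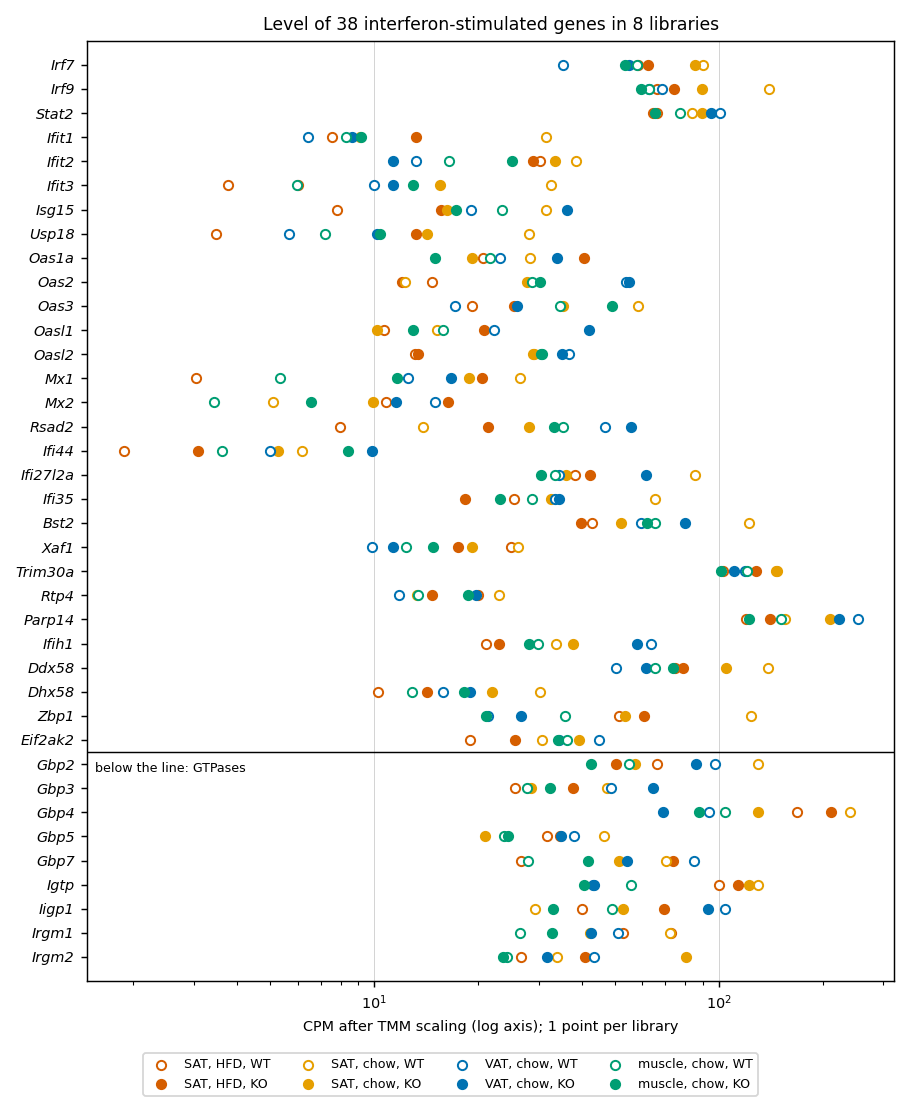
Level of each of the 38 genes in CPM after TMM scaling (log axis), with 1 point per library, open for WT and filled for KO and coloured by tissue and diet. The open SAT chow point is the highest in 20 of the 38 rows, and no muscle point is the highest in any row.

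The mean level of most of these genes was highest in SAT on chow or in VAT, and for SAT on chow this rested in part on 1 library. The mean of the 2 libraries was highest in SAT on chow for 20 genes, in VAT for 14, in SAT on HFD for 4 and in muscle for 0, whereas over all 16971 genes tested the shares were 32.8%, 28.2%, 19.3% and 19.7%. A single library, the SAT chow WT library, was the highest of the 8 for 20 of the 38 genes, against 26.2% of all genes. Without it, SAT on chow was highest for 11 genes (26.7% of all genes), VAT for 18 (28.2%), SAT on HFD for 8 (22.2%) and muscle for 1 (22.9%). For 18 genes both libraries of 1 tissue and diet exceeded all 6 other libraries (32.7% of all genes did so). These were 9 genes for SAT on chow (5.61% of all genes), 9 for VAT (14.5% of all genes), 0 for SAT on HFD (4.14% of all genes) and 0 for muscle (8.46% of all genes). The 9 of SAT on chow were Irf7, Irf9, Ifit2, Ifit3, Usp18, Trim30a, Ddx58, Dhx58 and Igtp. The 9 of VAT were Stat2, Oas2, Oasl1, Oasl2, Rsad2, Parp14, Ifih1, Gbp3 and Iigp1. Of the cytoplasmic RNA sensors, Ddx58 (RIG-I) and its relative Dhx58 thus stood highest in SAT on chow, and their relative Ifih1 in VAT.

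The tissues were then compared with edgeR, with genotype as a term, so that each difference rests on 2 libraries a side. Igtp was at 100.1 CPM in WT and 113 in KO cells of SAT on HFD, 129.8 and 122 in SAT of chow-fed mice, 43.4 and 43.1 in VAT, and 55.4 and 40.6 in muscle. All 4 SAT libraries lay above all 4 libraries of VAT and muscle. Igtp fell by 1.54 on the log2 scale in VAT relative to SAT on chow (SE 0.30, adjusted p = 0.0290, edgeR quasi-likelihood test with Benjamini-Hochberg adjustment over 16971 genes), and both VAT libraries lay below both SAT libraries. It was the only 1 of the 38 called in this contrast, where 1.87% of all genes were called lower and 3.13% higher. The difference in muscle was -1.40 (SE 0.30, edgeR adjusted p = 0.0731). The call was lost without the SAT HFD WT library (adjusted p = 0.0556), and without either VAT library or either muscle library the edgeR adjusted p lay between 0.0580 and 0.339. Igtp lies at chr11:58199556-58207591 of GRCm38 within the annotated span of Irgm2 on the same strand (chr11:58199618-58222782), apart from its first bases, and how reads shared by the pair were counted is not given in the sources used here.

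At an unadjusted p under 0.05 (edgeR), 9 of the 38 genes were lower in VAT than in SAT on chow (10.8% of all genes were) and 5 were higher (9.92% of all genes were). The lower ones were Irf7, Irf9, Ifit2, Oas3, Xaf1, Ddx58, Zbp1, Gbp4 and Igtp, and the higher ones Oas2, Oasl1, Rsad2, Ifih1 and Iigp1. Members of a family therefore stood on opposite sides. In WT and KO cells respectively, Oas3 measured 19.2 and 25.4 CPM in SAT on HFD, 58.2 and 35.3 in SAT of chow-fed mice, 17.2 and 25.9 in VAT and 34.6 and 49.1 in muscle. The levels of Oas2 in WT and KO were 14.7 and 12.0 CPM in SAT on HFD, 12.3 and 27.8 in SAT of chow-fed mice, 53.7 and 54.8 in VAT and 28.7 and 30.2 in muscle. Both genes encode synthases of the oligoadenylates that activate RNase L. Their log2 differences, VAT minus SAT on chow, were -1.16 (SE 0.42) for Oas3 and 1.48 (SE 0.43) for Oas2, with edgeR adjusted p of 0.170 and 0.103. For Iigp1 the WT and KO libraries gave 40.2 and 69.2 CPM in SAT on HFD, 29.3 and 52.7 in SAT of chow-fed mice, 104 and 93.2 in VAT, and 49.0 and 33.1 in muscle. Iigp1, an Irg GTPase of pathogen vacuoles, was higher in both VAT libraries than in any other library, and its log2 difference of 1.31 (SE 0.42) had an edgeR adjusted p of 0.130. Zbp1 was at 51.3 CPM in WT and 60.5 in KO cells of SAT on HFD, 124 and 53.5 in SAT of chow-fed mice, 21.3 and 26.6 in VAT, and 35.7 and 21.2 in muscle. The SAT chow WT library stood highest, and both VAT libraries and the muscle KO library lowest. The log2 difference of Zbp1 was -1.80 (SE 0.45) in VAT and -1.62 (SE 0.44) in muscle, with edgeR adjusted p of 0.0662 and 0.157.

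Muscle was the tissue with low GTPases. Of the 9 GTPases, 8 had a lower fitted level in muscle than in SAT on chow, as did 9462 of all 16971 genes. The lowest mean was in muscle for 6 of the 9, and for 3049 of all 16971 genes. Against SAT on chow, 5 of the 9 GTPases (Gbp2, Gbp4, Igtp, Irgm1 and Irgm2) were lower at an unadjusted p under 0.05 (edgeR). So were 4 of the 29 type I targets (Irf9, Ifi35, Ddx58 and Zbp1) and 4.63% of all genes. At that level 0 of the 38 were higher (6.91% of all genes were). The median difference of the 38 genes moved with the SAT chow library used, as given below. None of the 38 had an edgeR adjusted p under 0.05 (0.165% of all genes were lower and 1.1% higher at that level). DESeq2 called 2 of the 38, Igtp and Zbp1, and 1053 of all 16971 genes. Between muscle and VAT 0 of the 38 were called by edgeR (0.99% of all genes higher and 1.03% lower). DESeq2 called 1 of the 38 there, Ifih1, and 1253 of all 16971 genes. At an unadjusted p under 0.05, 5 of the 38 were lower in muscle than in VAT (6.13% of all genes were) and 1, Oas3, was higher (6.66% of all genes were).

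HFD was compared with chow in SAT alone. 31 of the 38 genes had a lower fitted level on HFD, as did 11638 of all 16971 genes. The median log2 difference of the 38 was -0.56, beside a median of -0.32 over all genes. 26 of the 29 type I targets were lower, and 5 of the 9 GTPases. No gene of the 38 or of the whole table had an adjusted p under 0.05 by edgeR, and DESeq2 called 246 genes, with 0 of the 38 among them. The 6 at an unadjusted p under 0.05 (edgeR) were all lower on HFD (8.84% of all genes were), and they were Ifit3, Oas3, Oasl2, Ifi35, Bst2 and Dhx58. Ifit3 had the widest difference, at -2.35 (SE 0.67, edgeR adjusted p = 0.457). Without the SAT chow WT library the median of the 38 genes was -0.17, beside -0.13 over all genes, and without the SAT HFD WT library it was -0.23, beside -0.15. With DESeq2 size factors the all-gene median was -0.09 and that of the 38 genes -0.32.

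These contrasts depended on which SAT chow library was used. Without the WT or the KO library, SAT on chow was left at 1 library that is assumed to vary like the others. For VAT minus SAT on chow the median log2 difference of the 38 genes was -0.27, beside -0.13 over all genes. It was 0.36, beside 0.10, without the WT library and -0.59, beside -0.02, without the KO library. For muscle minus SAT on chow the median was -0.62, beside -0.11 over all genes. It was -0.26, beside 0.05, without the WT library and -0.89, beside 0.005, without the KO library. The tissues differed also in cell markers, and EC markers summed to 272 to 654 CPM in SAT against 1565 to 2116 in VAT and muscle. Neutrophil markers summed to 27500.4 and 31969.6 CPM in muscle against 60.9 to 289 elsewhere. Macrophage markers summed to 14932 and 14724 CPM in VAT against 429.6 to 5590.2 elsewhere, and to more than EC markers in every library. T cell markers summed to 1428 to 3495 CPM in SAT against 207 to 638 elsewhere, and B cell markers to 1282 to 2058 in SAT against 127 to 939 elsewhere. Fewer cells of a type and less RNA per cell cannot be told apart in such bulk libraries, and the part of these cells in the tissue differences was not tested.

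**Figure D3:**
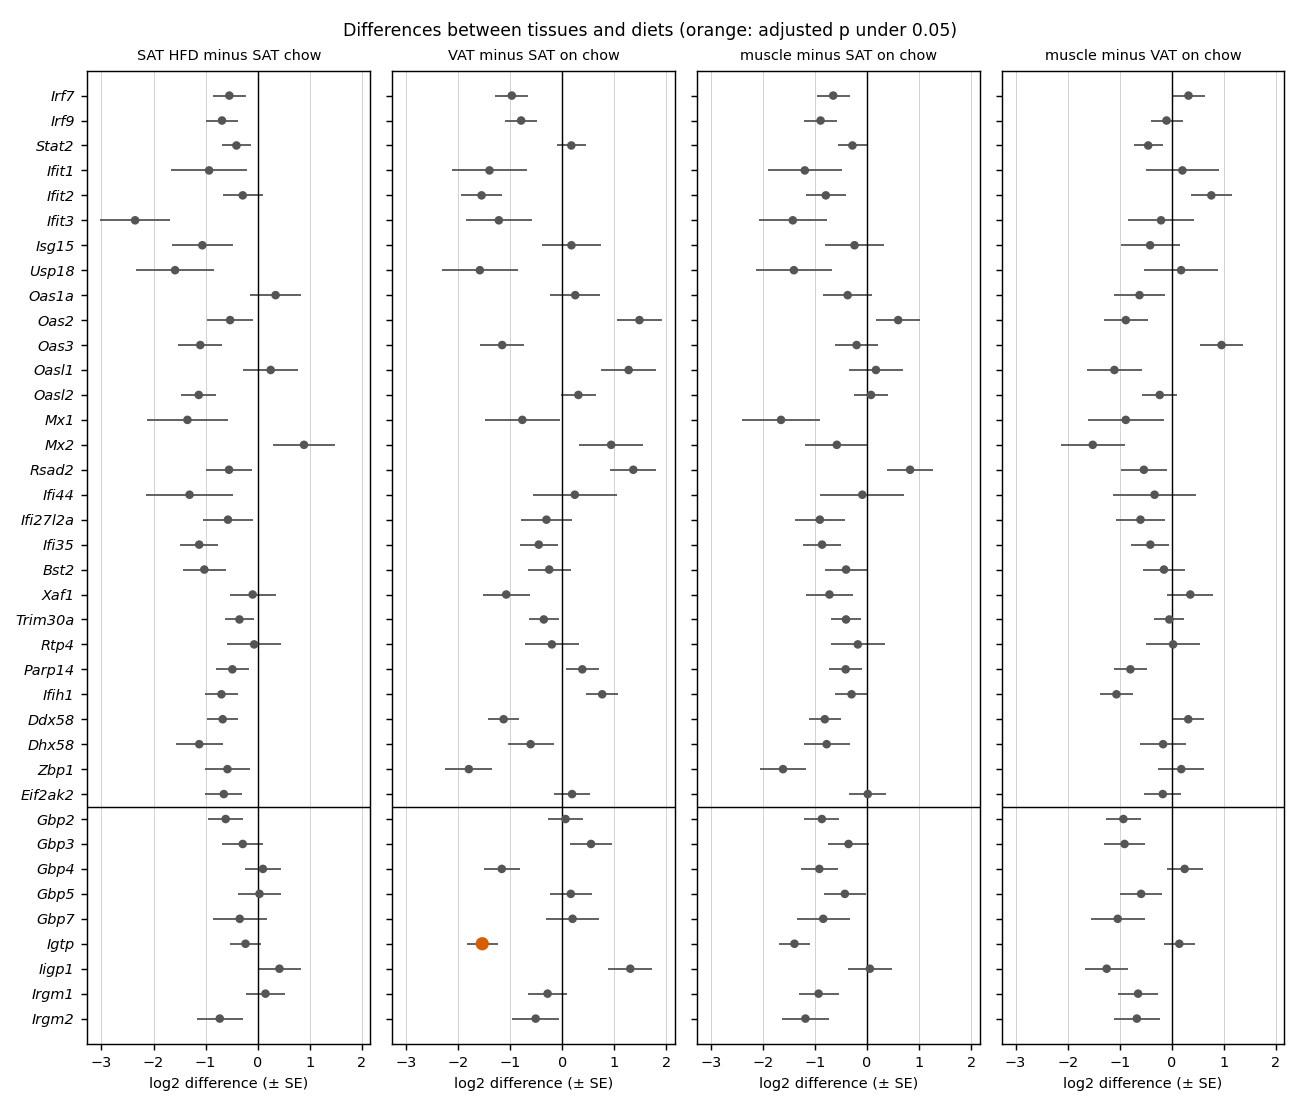
Log2 difference between tissues or diets for each of the 38 genes from the edgeR fit, with bars of 1 SE, type I targets above the line and GTPases below it. The orange point is Igtp in VAT minus SAT on chow at -1.54, the 1 point with an adjusted p under 0.05.

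The KO and WT libraries were next set side by side within each tissue and diet. With 1 library per genotype these are ratios of 2 libraries with a 95% interval that covers counting error only, and no p-value is given. Reads carried no molecular identifiers, so copies of 1 molecule may be counted as separate reads and the intervals may be too narrow. An interval that leaves out 0 says that 2 libraries differ by more than counting error, not that the genotypes do.

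In SAT on HFD the 38 genes were mostly higher in KO. The interval lay above 0 for 22 genes (39.4% of all genes) and below 0 for 4 (33.2% of all genes), and the median log2 ratio was 0.32, beside 0.06 over all genes. The interval lay beyond 2-fold for 4 genes, all higher in KO (12.9% of all genes were), and for 0 on the lower side (10.9% of all genes). In WT and KO cells respectively, Mx1 measured 3.04 and 20.5 CPM in SAT on HFD, 26.5 and 18.9 in SAT of chow-fed mice, 12.5 and 16.7 in VAT and 5.34 and 11.6 in muscle. Mx1, a dynamin-like GTPase that blocks viral nucleoproteins, had its lowest level of all 8 libraries in the SAT HFD WT library, at 21 counts. Its log2 ratio there was 2.74 (interval 2.12 to 3.47). The levels of Usp18 in WT and KO were 3.47 and 13.2 CPM in SAT on HFD, 28.1 and 14.2 in SAT of chow-fed mice, 5.66 and 10.2 in VAT and 7.18 and 10.4 in muscle. Usp18, which removes Isg15 from proteins and restrains Ifnar2 signalling, also had its lowest level in that WT library, at 24 counts, and its log2 ratio was 1.91 (interval 1.31 to 2.61). Gbp7 and Rsad2, the radical enzyme viperin, were the other genes beyond 2-fold, at 1.45 (interval 1.23 to 1.69) and 1.42 (interval 1.0004 to 1.87). The interval of Rsad2 no longer lay beyond 2-fold with DESeq2 size factors (1.38) or with a trend of the ratio with gene length removed (1.40). With that trend removed 18 of the 38 genes lay above 0 and 4 below.

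By role, 4 of the 5 genes of the Ifit and Isg15 system, 3 of the 5 Oas enzymes, 3 of the 5 Gbp and all 4 Irg GTPases lay above 0 in SAT on HFD. None of the 3 signalling genes Irf7, Irf9 and Stat2 did. The 4 genes below 0 were Xaf1, Ifi35, Rtp4 and Gbp2. For Xaf1 the WT and KO libraries gave 25.0 and 17.5 CPM in SAT on HFD, 26.1 and 19.2 in SAT of chow-fed mice, 9.88 and 11.3 in VAT, and 12.3 and 14.8 in muscle. Xaf1, a pro-apoptotic partner of XIAP, had a log2 ratio of -0.52 (interval -0.81 to -0.23). Ifi35 was at 25.4 CPM in WT and 18.3 in KO cells of SAT on HFD, 65.1 and 32.7 in SAT of chow-fed mice, 33.4 and 34.3 in VAT, and 28.7 and 23.1 in muscle. The ratio of Ifi35, a leucine-zipper protein, was -0.47 (interval -0.76 to -0.19), and in SAT on chow it was also lower in KO. The macrophage markers summed to 739 CPM in WT and 429.6 in KO in this pair, with 9 of 10 below 0, and T cell markers to 1519.8 and 1816, with 6 of 8 above 0. Their part in the ratios was not tested.

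In SAT on chow the direction was the other way. The interval lay below 0 for 24 genes (40.2% of all genes) and above 0 for 7 (41.1% of all genes), with a median log2 ratio of -0.48, beside 0.00 over all genes. Beyond 2-fold were 5 genes lower in KO (11.5% of all genes) and 1 higher (19.1% of all genes). Of the 5, Ifit1 and Bst2 stayed beyond 2-fold with DESeq2 size factors, and Ifit1 alone with library totals or upper-quartile scaling. With a length trend removed none of the 5 stayed beyond 2-fold, and the 2 genes then beyond it on the lower side were others. All 5 genes of the Ifit and Isg15 system and all 5 Gbp lay below 0. In WT and KO cells respectively, Ifit1 measured 7.52 and 13.2 CPM in SAT on HFD, 31.5 and 9.12 in SAT of chow-fed mice, 6.44 and 8.62 in VAT and 8.29 and 9.14 in muscle. Ifit1 was thus high in the SAT chow WT library alone, and its log2 ratio was -1.79 (interval -2.06 to -1.52). The levels of Ifi27l2a in WT and KO were 38.2 and 42.2 CPM in SAT on HFD, 85.2 and 36.0 in SAT of chow-fed mice, 34.3 and 61.5 in VAT and 33.5 and 30.4 in muscle. Ifi27l2a had a log2 ratio of -1.24 (interval -1.38 to -1.101), with the WT library again the highest of all 8. Bst2 at -1.23 (interval -1.35 to -1.12), Zbp1 at -1.21 (interval -1.33 to -1.099) and Gbp2 at -1.18 (interval -1.298 to -1.07) were the other 3 beyond 2-fold. With the length trend removed Ifi27l2a was at -0.40 and Bst2 at -0.64.

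7 genes lay above 0 in SAT on chow, namely Oas2, Mx2, Rsad2, Parp14, Eif2ak2, Iigp1 and Irgm2. For Irgm2 the WT and KO libraries gave 26.6 and 40.9 CPM in SAT on HFD, 34.0 and 80.6 in SAT of chow-fed mice, 43.4 and 31.8 in VAT, and 24.2 and 23.7 in muscle. The SAT chow KO library held the highest level of Irgm2, at a log2 ratio of 1.24 (interval 1.1004 to 1.39), while its overlapping neighbour Igtp had -0.09 (interval -0.18 to 0.00). Oas2 had 1.17 (interval 0.93 to 1.42), at levels below those of VAT in both libraries. Parp14 was at 120.2 CPM in WT and 141 in KO cells of SAT on HFD, 156 and 209.9 in SAT of chow-fed mice, 253 and 223 in VAT, and 151 and 122 in muscle. Parp14, an ADP-ribosyltransferase of macrophage activation, had 0.43 (interval 0.36 to 0.51).

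Leukocyte markers were lower in the same KO library. Macrophage markers summed to 2190.0 CPM in WT and 918 in KO (10 of 10 below 0), T cell markers to 3495 and 1428 (8 of 8), NK cell markers to 350.3 and 190.1 (6 of 6), B cell markers to 2058 and 1449 (5 of 6) and neutrophil markers to 257 and 60.9 (9 of 10). Stromal markers summed to 725 CPM in WT and 3304 in KO, with 7 of 7 above 0, mural markers to 53.3 and 180.1, with 5 of 6 above 0, and EC markers to 501 and 654, with 7 of 10 above 0. Plasmacytoid dendritic cell markers, of the cells best known for type I interferon release, summed to 232 and 250.04 CPM, with 4 of 5 below 0 and 1 above. The part of these cells in the ratios was not tested. Scaling mattered here, since by library totals the all-gene median moved to 0.23, and the 38 genes then split into 13 above and 23 below 0. Removal of a trend of the ratio with gene length, chosen after the data were seen, left 24 below and 9 above 0.

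In VAT the type I targets and the GTPases stood on different sides. Of the 29 type I targets the interval lay above 0 for 14 and below 0 for 3, and of the 9 GTPases it lay above 0 for 1 (Gbp3) and below 0 for 6. Together these made 15 genes above 0 (26.6% of all genes) and 9 below 0 (24.7% of all genes), and none lay beyond 2-fold (2.4% of all genes higher and 2.09% lower). The median log2 ratio was 0.25 for the type I targets and -0.18 for the GTPases, beside 0.01 over all genes. In WT and KO cells respectively, Isg15 measured 7.81 and 15.6 CPM in SAT on HFD, 31.6 and 16.3 in SAT of chow-fed mice, 19.1 and 36.3 in VAT and 23.5 and 17.2 in muscle. The library labelled VAT KO held the highest Isg15 level of all 8, at a log2 ratio of 0.93 (interval 0.67 to 1.19). The levels of Ifi44 in WT and KO were 1.88 and 3.09 CPM in SAT on HFD, 6.19 and 5.27 in SAT of chow-fed mice, 4.996 and 9.86 in VAT and 3.62 and 8.40 in muscle. Ifi44, a microtubule-associated antiviral protein, had 0.98 (interval 0.48 to 1.502) from 45 and 135 counts. For Gbp7 the WT and KO libraries gave 26.7 and 73.4 CPM in SAT on HFD, 70.3 and 51.3 in SAT of chow-fed mice, 84.7 and 54.1 in VAT, and 28.0 and 41.6 in muscle. The ratio of Gbp7 in VAT was -0.65 (interval -0.79 to -0.498) and that of Irgm2 -0.45 (interval -0.65 to -0.25), both lower in the library labelled KO.

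Stromal markers summed to 944 CPM in the VAT library labelled WT and 2143 in that labelled KO (7 of 7 above 0), mural markers to 141 and 573 (6 of 6), and EC markers to 1849 and 1565 (7 of 10 below 0). T cell markers summed to 207 and 280.1 CPM, with 6 of 8 above 0, and macrophage markers to 14932 and 14724. Satellite and myogenic markers summed to 105 CPM in the library labelled WT and 1.24 in that labelled KO (5 of 5 below 0). Their sum was lower in KO in the other pairs as well. It was 21.3 and 1.31 CPM in SAT on HFD (2 of 5 below 0), 21.7 and 3.16 in SAT of chow-fed mice (4 of 5) and 37.4 and 6.19 in muscle (5 of 5). Pax7, Myf5 and Myod1 had 0 counts in both SAT HFD libraries, so that the sums there came from Acta1 and Ckm. Adipocyte markers summed to 9.88 and 10.2 CPM in VAT and to 0.682 CPM or less elsewhere. Their part in the VAT ratios was not tested.

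In muscle the genes were split. The interval lay above 0 for 13 genes (27.1% of all genes) and below 0 for 12 (28.9% of all genes), none lay beyond 2-fold (2.76% of all genes higher and 2.01% lower), and the median log2 ratio was -0.05. Zbp1 at -0.76 (interval -0.97 to -0.55) and Iigp1 at -0.57 (interval -0.74 to -0.397) were lowest in KO relative to WT. Ifi44 at 1.21 (interval 0.75 to 1.69) and Mx1 at 1.12 (interval 0.74 to 1.52) were highest, from 59 and 114 counts and from 87 and 158 counts in WT and KO. Ifit2 was at 30.2 CPM in WT and 28.8 in KO cells of SAT on HFD, 38.4 and 33.5 in SAT of chow-fed mice, 13.2 and 11.3 in VAT, and 16.5 and 25.1 in muscle. Ifit2, an RNA-binding Ifit protein, had 0.61 (interval 0.37 to 0.84) in muscle and differed less in the other pairs. By library totals the all-gene median in muscle moved to 0.16, 15 genes then lay above and 7 below 0, and the median of the type I targets turned from -0.07 to 0.09. In this pair T cell markers summed to 638 CPM in WT and 432 in KO (7 of 8 below 0), NK cell markers to 93.2 and 51.6 (4 of 6 below 0) and stromal markers to 577 and 1253 (7 of 7 above 0), and their part was not tested.

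**Figure D4:**
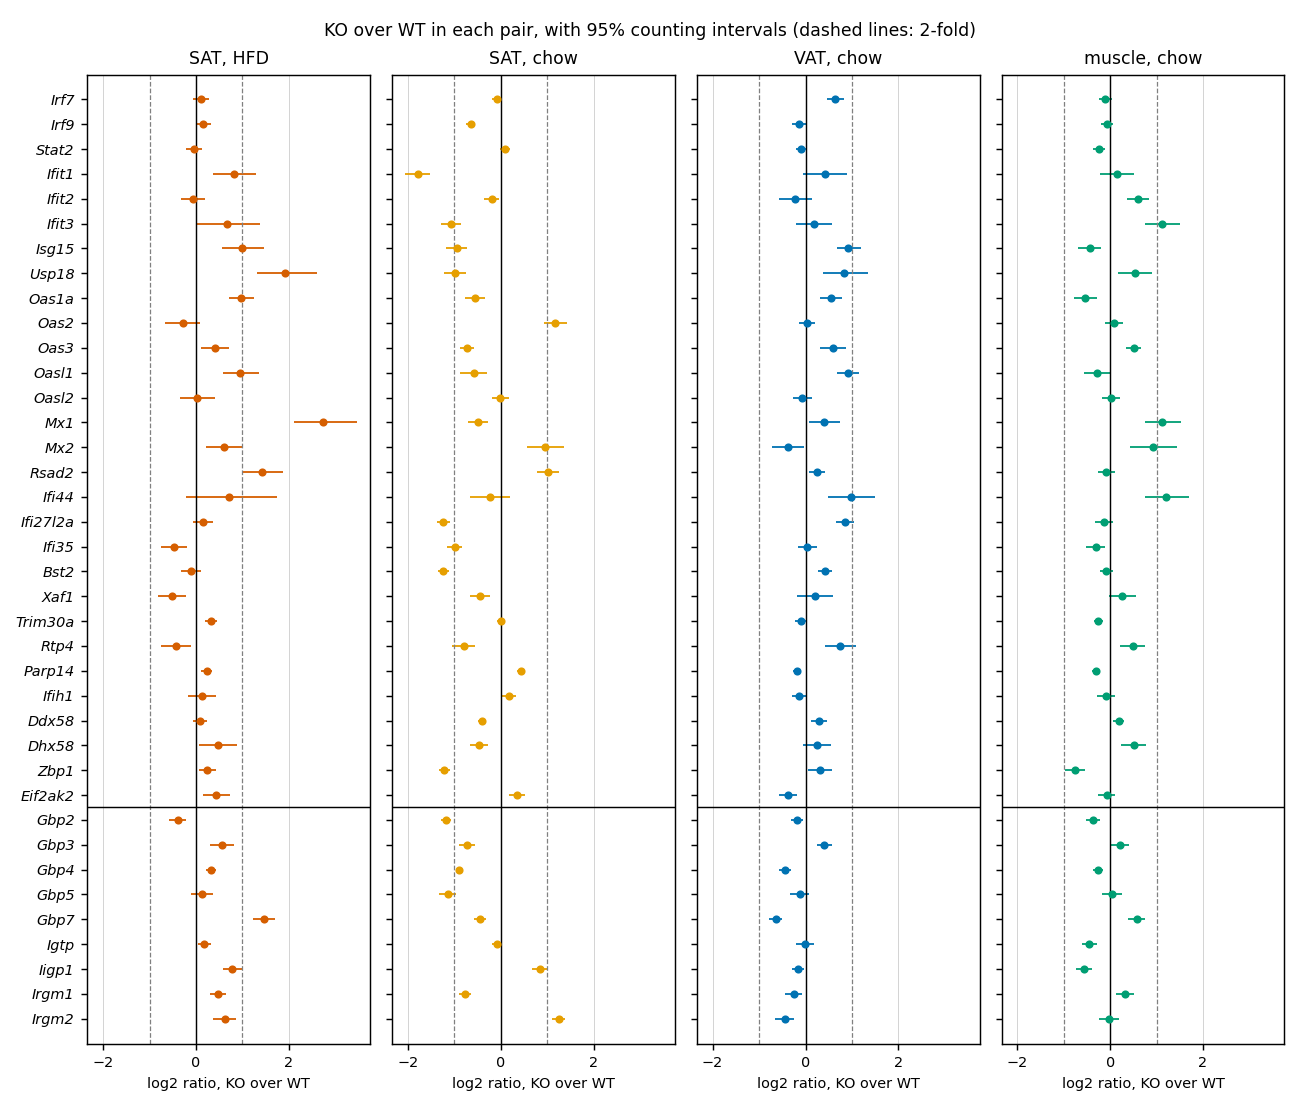
Log2 ratio of KO to WT for the 38 genes in each of the 4 pairs, with 95% counting intervals, type I targets above the line and GTPases below it, and dashed lines at 2-fold. Points sit mostly right of 0 in SAT on HFD (22 intervals above 0) and mostly left of it in SAT on chow (24 intervals below 0).

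Stat2, Ddx58 and Gbp4 were the most counted genes of their roles. In WT and KO cells respectively, Stat2 measured 66.2 and 64.4 CPM in SAT on HFD, 83.8 and 89.2 in SAT of chow-fed mice, 101 and 94.7 in VAT and 77.4 and 65.4 in muscle. Stat2, a subunit of the type I complex, thus spanned a narrow range, highest in both VAT libraries. The levels of Ddx58 in WT and KO were 74.5 and 78.7 CPM in SAT on HFD, 139 and 105 in SAT of chow-fed mice, 50.3 and 61.4 in VAT and 65.2 and 73.8 in muscle. Ddx58 was highest in both SAT chow libraries. For Gbp4 the WT and KO libraries gave 169 and 211 CPM in SAT on HFD, 241 and 129 in SAT of chow-fed mice, 93.7 and 68.8 in VAT, and 104 and 87.3 in muscle. Gbp4 stood higher in the 4 SAT libraries than in any library of VAT or muscle, and its log2 ratio was 0.32 (interval 0.22 to 0.42) in SAT on HFD and -0.89 (interval -0.97 to -0.82) in SAT on chow. Gbp4 overlaps Gbp8 and Gbp9 on the same strand, so that reads of these relatives cannot be assigned with certainty. The same holds for Ifit, Oas, Gbp and Irg genes in general, which are families of similar sequence.

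No gene was higher in KO in all 4 pairs (5.26% of all genes were), and 1, Gbp2, was lower in all 4 (4.31% of all genes were). Gbp2 was at 66.2 CPM in WT and 50.2 in KO cells of SAT on HFD, 129.8 and 57.1 in SAT of chow-fed mice, 97.3 and 86.1 in VAT, and 54.9 and 42.5 in muscle. Gbp2, a guanylate-binding protein of vacuole and bacterial membranes, had log2 ratios of -0.40 (SAT, HFD), -1.18 (SAT, chow), -0.18 (VAT) and -0.37 (muscle), each with an interval below 0. In the edgeR test of genotype over the 4 pairs, with tissue and diet as a block, 0 of the 38 genes had an adjusted p under 0.05 and 0 had an unadjusted p under 0.05, and DESeq2 called 0 of them. Over all genes edgeR called 1 (0.00589% of all genes higher and 0% lower), 277 had an unadjusted p under 0.05 (1.05% of all genes higher and 0.577% lower), and DESeq2 called 19. Gbp2 had the lowest p of the 38 genes, at a fitted log2 ratio of -0.53 (SE 0.24, unadjusted p = 0.0566 and adjusted p = 0.9996 by edgeR).

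The balance of the lists was followed as the summed CPM per kilobase of the 9 GTPases over that of the 29 type I targets, which does not depend on library scaling. In SAT on HFD the type I sum was 324 in WT and 379 in KO, the GTPase sum 145 and 179.8, and the ratio 0.447 and 0.475. In SAT on chow the type I sum was 705 and 419, the GTPase sum 213 and 167, and the ratio 0.302 and 0.400. In VAT the type I sum was 396 and 524 and the GTPase sum 162 and 145. The VAT ratio was 0.410 in the library labelled WT and 0.277 in that labelled KO, a log2 change of -0.57 (95% counting interval -0.64 to -0.49). Muscle held the lowest GTPase sums, 107 and 92.3, and ratios of 0.282 and 0.260 (log2 change -0.12, interval -0.20 to -0.04). The ratio in KO was above that in WT in SAT on chow by 0.40 on the log2 scale (interval 0.35 to 0.46), but this turned to -0.11 when CPM was not divided by length, which lowers the weight of short genes such as Ifi27l2a and Bst2. The VAT change was -0.34 in that setting, and -0.49 as a difference of mean log2 levels.

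**Figure D5:**
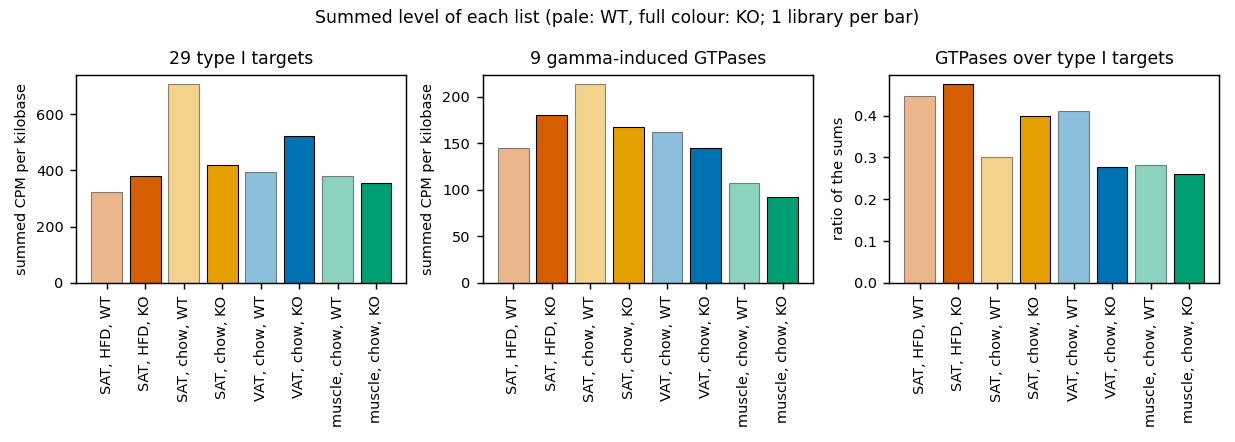
Summed CPM per kilobase of the 29 type I targets (left) and the 9 GTPases (middle) and the ratio of the sums (right), 1 bar per library, pale for WT and full colour for KO. The type I bar is tallest for SAT chow WT at 705, and the ratio is 0.410 and 0.277 in the VAT libraries labelled WT and KO.

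Of 44 other genes of the interferon pathway, 24 had a mean of at least 10 counts and could be tested. The ligands of type I and type III interferon were at or near 0, with Ifnb1 at 6 counts at most and 12 of the alpha genes at 0 in all 8 libraries, and Ifnk at 37 counts at most. Ifng, the gamma ligand, had 86 to 373 counts. In WT and KO cells respectively, Ifng measured 25.0 and 8.80 CPM in SAT on HFD, 18.5 and 14.9 in SAT of chow-fed mice, 13.0 and 27.3 in VAT and 12.3 and 6.34 in muscle. Its log2 ratio was -1.501 (interval -1.86 to -1.16) for SAT on HFD, -0.31 (interval -0.56 to -0.06) for SAT on chow, 1.07 (interval 0.77 to 1.38) for VAT and -0.96 (interval -1.34 to -0.59) in muscle. The GTPase median in SAT on HFD and VAT (0.47 and -0.18) had the other sign than the Ifng ratio, while in SAT on chow and in muscle (-0.73 and -0.04) it had the same sign. By library totals the muscle GTPase median turned to 0.13, the other sign than Ifng. In muscle the interval lay above 0 for 3 GTPases and below 0 for 4. Each sign rests on 1 library per genotype, and that of VAT on the labels alone. A link between Ifng and the GTPases was not tested.

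Receptor genes were well expressed, with Ifnar1 at 108 to 231 CPM, Ifnar2 at 53.8 to 101 CPM, Ifngr1 at 215 to 455 CPM and Ifngr2 at 37.7 to 168 CPM. Ifngr2 had the highest ratio of these, 1.64 (interval 1.53 to 1.75) in SAT on chow. The lambda receptor gene Ifnlr1 was at 19.1 and 17.3 CPM in muscle and at 2.54 CPM or less elsewhere, and Il10rb, its partner chain, at 30.8 to 91.0 CPM. None of the 24 had an adjusted p under 0.05 by edgeR for genotype or in any contrast of tissue or diet. At an unadjusted p under 0.05 (edgeR), 0 differed by genotype or by diet. In VAT 3 were higher than in SAT on chow (9.92% of all genes were) and 2 lower (10.8% of all genes). In muscle 2 were lower than in SAT on chow (4.63% of all genes). Against VAT, 1 was higher in muscle (6.66% of all genes) and 4 lower (6.13% of all genes). Those of VAT against SAT on chow were Il10rb, Irf5 and the feedback inhibitor Socs3 on the higher side, and Irf3 and Ikbke, a kinase of Irf3, on the lower. Ikbke had the lowest p of them, at a log2 difference of -1.07 (SE 0.28, edgeR adjusted p = 0.0760). DESeq2 called 4 of the 24 between VAT and SAT on chow, where it called 2280 of all 16971 genes. It called 2 between muscle and SAT on chow (1053 of all genes), 3 between muscle and VAT (1253 of all genes), and 0 by genotype or by diet (19 and 246 of all genes). With either SAT chow library left out the number of the 24 called by edgeR also changed. Irf1, a factor that both kinds of interferon induce, ran from 179.7 to 310.1 CPM, highest in both VAT libraries. In the pairs, 13 of 23 pathway genes lay above 0 in SAT on HFD and 6 below (39.4% and 33.2% of all genes). These counts were 8 and 13 of 24 in SAT on chow (41.1% and 40.2% of all genes). They were 12 and 5 of 24 in VAT (26.6% and 24.7% of all genes), and 1 and 16 of 24 in muscle (27.1% and 28.9% of all genes).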

How the data were processed

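RNAseq libraries of mG+ cells were deposited as 1 table of read counts per gene, in 8 columns that each match 1 sample. Per the labels, RNA was taken with an RNeasy kit and libraries were made with a SMARTER kit, whereas the study's methods name Trizol. The authors aligned reads with HISAT2 2.0.5 to GRCm38 (mm10), per the submitters' processing notes. The counting program and the use of strand are not given in the sources used here. The deposited gene length, in bases, was used for levels per kilobase and for the removal of a length trend.

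Counts were scaled with TMM factors over all genes, and those averaging 10 counts or more per library (16971 of 54532) were tested with edgeR 4.0.16 (R 4.3.3): the quasi-likelihood test with robust dispersion, tissue and diet as 4 levels, genotype as a term and Benjamini-Hochberg adjustment at 0.05. DESeq2 1.42.0 was an alternative. Within a pair, log2 ratios of CPM (prior count 0.5) carry exact conditional binomial (Clopper-Pearson) 95% intervals of counting error. A floor of 3 counts was worth 0.184 to 0.434 CPM. The model was also run on simulated data with 200 changed genes. With a dispersion of 0.1, the genotype test found 9.5% of genes changed 2-fold and 95.5% of those changed 4-fold. With a dispersion of 0.3 these shares were 0.5% and 20%. In VAT minus SAT on chow they were 1% and 65.5% at 0.1, and 0% and 0% at 0.3. A count of 0 called genes thus does not exclude 2-fold changes. Simulated intervals had a coverage of 95.63% to 95.98%, for counting error only. Alternatives were other scalings and filters, DESeq2, each library or pair left out, no block, no genotype term and, chosen after the data were seen, TMM over the tested genes, removal of a length trend and the tally of highest tissues without a SAT chow library.

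The sources used here do not say that the libraries come from separate mice, so p-values measure only the spread between these libraries, which may be technical. The genes and lists were chosen with earlier results of these data known. Named with all values are the most counted gene of each role, the 2 genes with the highest and the 2 with the lowest ratio in each pair, and those called; Gbp2 was added after its values were seen. Promoter windows are from RefSeq. Another pathway gene is not reported here.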

Additional observations from a re-analysis of the deposited data

Results flagged for a closer look

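For 8 genes the interval of a pair lay beyond 2-fold on one side and that of another pair beyond 0 on the other. Each pair has 1 library per genotype, so the difference between pairs was not tested. Between SAT on chow and SAT on HFD the log2 ratios of KO to WT were -1.79 and 0.81 for Ifit1, -0.98 and 1.91 for Usp18, -0.49 and 2.74 for Mx1, -1.21 and 0.24 for Zbp1, and -0.45 and 1.45 for Gbp7. Between SAT on chow and VAT they were -1.24 and 0.84 for Ifi27l2a, -1.23 and 0.43 for Bst2, -1.21 and 0.32 for Zbp1, and 1.24 and -0.45 for Irgm2. Gbp7 stood at 1.45 in SAT on HFD and at -0.65 in VAT. SAT on chow was thus one side of 9 of these 10 contrasts.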

How the results depend on the processing

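Genes called by genotype numbered 1 with edgeR, 0 with upper-quartile scaling or without the tissue and diet block, 42 with all genes of at least 1 count, 19 with DESeq2 and 0 to 2 with a pair left out; of the 38 genes, 0 were called in each of these. Between SAT on HFD and chow 0 genes were called, against 317 with all genes of at least 1 count, 246 with DESeq2 and 0 to 441 with a library left out (0 to 2 of the 38). Between VAT and SAT on chow 849 were called, against 2100, 2280 and 108 to 3510, with 1 of the 38 against 7, 7 and 0 to 11, and 4 without the genotype term. Between muscle and SAT on chow 215 were called, against 971, 1053 and 39 to 1771, with 142 by upper quartile and 338 without the genotype term, and with 0 of the 38 against 2, 2 and 0 to 8, and 1 without that term. Between muscle and VAT 343 were called, against 1159, 1253 and 39 to 1264, with 539 without the genotype term, and with 0 of the 38 against 1, 1 and 0 to 3.

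In SAT on chow the genes above 0 numbered 7, against 13 with library totals and 11 with upper quartile, and in muscle those below 0 numbered 12, against 7 with library totals. The log2 change of the GTPase to type I ratio in SAT on chow, 0.40, reversed to -0.11 without division by length, was 0.022 as a difference of mean log2 levels and 0.53 without the most counted member of each list, and in VAT it was -0.34 without division by length. Apart from settings that leave out samples or change the genes tested, the cause was not tested.

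No paired analysis was possible because the labels give no replicate numbers, and WT and KO of a tissue and diet share only that, which the block already holds. With 1 library per genotype and tissue, differences between 2 libraries cannot be told apart from genotype, and genes under about 100 counts, such as Ifi44, Mx1 and Usp18 in SAT HFD WT, have wide intervals.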
